A study of Mus musculus with 2 samples.

Results

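The CXC chemokines *Cxcl1*, *Cxcl2*, *Cxcl3* and *Cxcl5*, the chemokine *Cxcl12* and the receptors *Cxcr2* and *Cxcr4* were followed across the 11 annotated cell types of colitis-associated colon tumors (CACs) of mice. They are 7 of the 32291 genes in the expression table and were chosen by name, as the ligands and receptors of 2 chemotactic axes that act on neutrophils. CXCL1, CXCL2, CXCL3 and CXCL5 carry a Glu-Leu-Arg motif and bind CXCR2, a G protein-coupled receptor through which neutrophils leave the blood and enter inflamed mucosa. Their genes lie in one cluster and are induced by IL-1, IL-17 and TNF through NF-κB. CXCL12, made by stromal cells, binds CXCR4, which retains neutrophils in the bone marrow and guides lymphocytes.

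Single cells of tumors were sequenced from the 3′ end of transcripts with unique molecular identifiers (UMIs), so that each UMI counts 1 captured transcript whatever its length. One library was made per genotype, each from 6 to 8 tumors combined from 3 mice. The library labelled Mir34a_F/F (Mir34a F/F below) came from C57Bl/6 mice with the floxed *Mir34a* gene and no Cre, and the library labelled Mir34a_Mye_KO (Mir34a ΔMye below) from littermates in which *LysM*-Cre, active in macrophages, neutrophils and other myeloid cells, is to delete the gene. Both groups carried the floxed allele and received the same treatment from an age of 6 to 10 weeks. Azoxymethane (AOM), a colon carcinogen, was given at 10 mg/kg 5 days before each of the first 2 periods of dextran sodium sulfate (DSS), which injures the colon epithelium. DSS was given for 5 days at 2.5% in the first and second period, both followed by 16 days of water, and for 5 days at 2% in the last, and tumors were taken 110 days after the first AOM injection. With 1 library per genotype there was no replicate, so no difference between the genotypes could be tested, and the mice within a library could not be told apart.

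The Mir34a F/F library held 20312 cells with 147109016 UMIs and the Mir34a ΔMye library 18571 cells with 193133086 UMIs. Median depth per cell was 4787 and 7716 UMIs, and the Mir34a ΔMye library was the deeper in 11 of 11 cell types, by 1.11 to 5.69 times. The libraries shared 96 cell barcodes. At least 25% mitochondrial UMIs were found in 12.2% of Mir34a F/F and 22.2% of Mir34a ΔMye cells. Among epithelial cells these were 20.04% and 38.8%, among macrophages 1.36% and 3.46% and among neutrophils 2.09% and 4.92%. The ratios this touches are given below without such cells, and with mitochondrial genes left out of the totals. Every fixed marker was highest in its own cell type except in basophils, where 3 of 5 were, *Ms4a2* and *Fcer1a* being highest in mast cells. Epithelial markers summed in T cells, which do not make them, to 36.3% and 29.0% of their level in epithelial cells, so UMIs of abundant transcripts were found in cell types that do not make them. The features for the targeted gene did not by themselves check the labels. The *Mir34a* primary transcript had 133 UMIs in Mir34a F/F and 462 in Mir34a ΔMye macrophages, or 6.83 and 13.9 per 1000000, and the feature for the mature miRNA had 0 UMIs in both libraries. The feature named for the Cre was counted in both libraries as well, with 537 and 233 UMIs. *Lyz2*, the gene into which the Cre is inserted in *LysM*-Cre mice, had 3892 and 1379 UMIs in macrophages, or 199.9 and 41.5 per 1000000, so it was lower in the library labelled Mir34a_Mye_KO. The libraries are therefore called by their labels, and every direction below is one between the libraries so labelled.

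Levels are each cell's UMIs of a gene per 10000 UMIs, averaged over the cells of a type, given for Mir34a F/F first and Mir34a ΔMye second. Ratios are log2 of Mir34a ΔMye over Mir34a F/F with 95% intervals that cover counting error only, not differences between mice or libraries. The intervals take UMIs as independent, so they are too narrow where few cells hold most UMIs. A ratio was formed where both libraries held at least 10 UMIs.

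In the GRCm38.p6 RefSeq annotation the 4 CXCR2 ligand genes lie on chromosome 5 within a short interval and on the same strand, *Cxcl5* at chr5:90759298-90761625, *Cxcl3* at chr5:90786101-90788093, *Cxcl1* at chr5:90891245-90893121 and *Cxcl2* at chr5:90903899-90905938. The other members lie elsewhere, *Cxcl12* at chr6:117168535-117181368, *Cxcr2* at chr1:74153994-74161246 and *Cxcr4* at chr1:128588199-128592299. The promoters of *Cxcl1*, *Cxcl2* and *Cxcl3* are shown, from 250 bases before to 50 bases after the transcription start on the plus strand, because all 3 hold one identical 11-base stretch, GGGAATTTCCC, which reads as the NF-κB consensus on both strands. Capitals mark that stretch and, in *Cxcl3*, the TATAAA sequence as well.
*Cxcl1*, chr5:90890995-90891294: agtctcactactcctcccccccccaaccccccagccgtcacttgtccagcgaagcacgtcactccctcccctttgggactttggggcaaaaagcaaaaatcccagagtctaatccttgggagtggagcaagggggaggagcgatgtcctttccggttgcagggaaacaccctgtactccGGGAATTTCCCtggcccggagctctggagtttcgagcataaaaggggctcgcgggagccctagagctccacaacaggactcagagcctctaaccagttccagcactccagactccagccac
*Cxcl2*, chr5:90903649-90903948: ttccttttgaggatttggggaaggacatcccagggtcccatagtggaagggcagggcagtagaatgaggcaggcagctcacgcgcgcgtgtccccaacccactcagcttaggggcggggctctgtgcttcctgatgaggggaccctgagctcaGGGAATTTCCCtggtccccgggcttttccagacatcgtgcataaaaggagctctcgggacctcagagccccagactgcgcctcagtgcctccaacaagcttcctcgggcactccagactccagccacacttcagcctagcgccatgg
*Cxcl3*, chr5:90785851-90786150: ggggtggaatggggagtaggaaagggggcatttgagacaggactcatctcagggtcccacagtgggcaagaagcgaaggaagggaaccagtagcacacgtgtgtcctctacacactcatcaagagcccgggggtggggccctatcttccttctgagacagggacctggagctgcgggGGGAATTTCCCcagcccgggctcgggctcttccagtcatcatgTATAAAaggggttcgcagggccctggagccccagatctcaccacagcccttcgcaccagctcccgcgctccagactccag
The stretch lies 71 to 61 bases before the start in *Cxcl1*, 97 to 87 in *Cxcl2* and 73 to 63 in *Cxcl3*. Its 2 matches to the consensus, one per strand, overlap in all but the outermost bases. The NF-κB consensus was found on either strand in 2779 of 32851 promoters of this length (8.46%) and in none of those of *Cxcl12*, *Cxcr2* and *Cxcr4*. *Cxcl5* was not searched. TATAAA, searched on both strands, was found in 4473 promoters (13.6%) and, among the 6 members searched, in *Cxcl3* at 30 to 25 bases before the start and in *Cxcr4*.

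In GENCODE vM21 models of the same build, the 3′ untranslated regions of the CXCR2 ligands were rich in ATTTA, the core of the AU-rich elements through which inflammatory transcripts are held unstable. *Cxcl1* held 7 in 592 bases, or 11.8 per 1000 bases, a density above that of 99.2% of genes. *Cxcl3* held 7.75 and *Cxcl2* 7.36 per 1000 bases, above 97.5% and 97.1% of genes, and *Cxcl5* 4.50, above 90.2%. *Cxcl12* with 0.77, *Cxcr2* with 1.10 and *Cxcr4* with 1.55 lay near the median gene, which held 1.23 per 1000 bases.

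Since *Mir34a* is the gene targeted by the genotype, the 3′ untranslated regions of the members were searched for CACTGCC, the complement of bases 2 to 8 of miR-34a-5p. The mature miRNA (chr4:150068473-150068494, plus strand) is shown with these bases in capitals, followed by the matches with theirs.
miR-34a-5p: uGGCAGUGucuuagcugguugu
*Cxcl12*, match at chr6:117176601-117176607: cccctcggccaCACTGCCccttgtggcct
*Cxcl12*, match at chr6:117179762-117179768: taatgcaagttCACTGCCactttgacaaa
*Cxcl12* was the only member with a match, and 14.2% of 20979 genes had at least 1. Its region was also the longest, with 5188 bases against 592 to 1818 in the other members and a median of 954 over genes. The share of genes was not matched for length. A match is a string of letters and not a measured site.

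*Cxcl2* was by far the most abundant member and was concentrated in 3 cell types. Neutrophils had 136 and 139 UMIs per 10000, which placed *Cxcl2* 6th among all genes of the cell type in both libraries. Basophils had 129.9 and 87.9 and macrophages 71.3 and 46.7, and these 3 cell types lay apart from one another and from the rest in both libraries. The other 8 cell types ranged from 1.98 to 8.65. T cells, which are not known for making CXCL2, had 5.013 and 3.42, and 70.6% and 81.8% of them held at least 1 UMI at median depths of 3548 and 8043 UMIs, so a *Cxcl2* UMI in a cell was no evidence of expression. After thinning each cell to 1000 UMIs, a *Cxcl2* UMI was found in 94.9% and 94.9% of neutrophils, 77.5% and 70.8% of macrophages and 32.0% and 24.3% of T cells. Counted over whole libraries, macrophages held 48.0% and 50.1% of all *Cxcl2* UMIs, neutrophils 25.7% and 34.6% and epithelial cells 20.9% and 9.63%.

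The libraries differed in *Cxcl2* by cell type. In macrophages, with 131202 and 191630 UMIs, the ratio was -0.61 (95% interval -0.62 to -0.60). Without the cells at or over 25% mitochondrial UMIs it was -0.59. The ratio was -0.22 when UMIs were summed over cells instead of averaged, which gives deep cells more weight, and -0.45 in the macrophages whose highest marker score was that of macrophages. In neutrophils, with 70214 and 132428 UMIs, the ratio was 0.032 (0.017 to 0.047). The neutrophil ratio was -0.022 after thinning to 1000 UMIs and -0.086 with *S100a8* and *S100a9* left out of the cell totals, so its sign depended on the scale. Of 11 cell types 9 had a ratio below 0. Of all genes, 49.6% (dendritic cells) to 87.7% (epithelial cells) had a ratio below 0 in a cell type. The epithelial *Cxcl2* ratio of -0.19 lay above that of 57.1% of the genes measured there. Fibroblasts had the lowest *Cxcl2* ratio, -1.16 (-1.56 to -0.77), from 331 and 241 UMIs in 57 and 60 cells. Of these, 109 and 75 UMIs lay in a single cell of each library. The same fibroblasts held 455 and 94 UMIs of the neutrophil marker *S100a8*, and the part of neutrophil RNA in their ratio was not tested. Endothelial cells had 7.13 and 7.32, a ratio of 0.037 (-0.20 to 0.28).

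**Figure D1:**
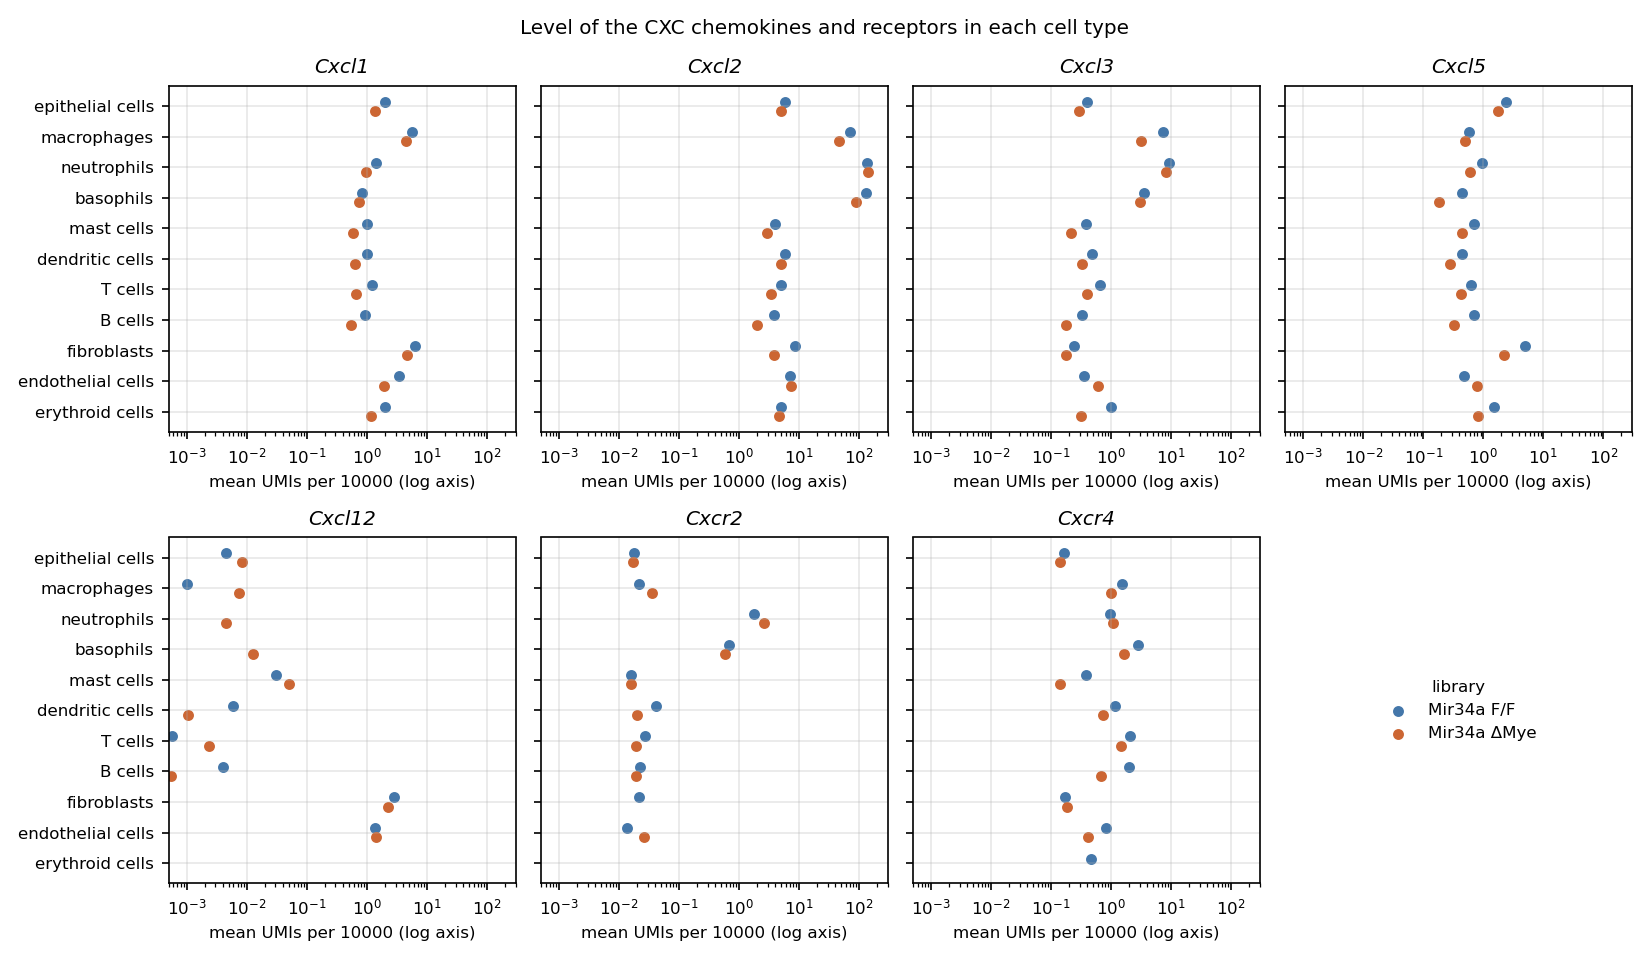
Level of each of the 7 genes (mean UMIs per 10000 UMIs, log axis) in the 11 cell types, with 1 point per library (Mir34a F/F blue, Mir34a ΔMye orange) and no point where a library held no UMI. *Cxcl2* and *Cxcl3* were highest in neutrophils, *Cxcr2* was highest in neutrophils at 1.76 and 2.58, *Cxcl5* and *Cxcl12* were highest in fibroblasts, and *Cxcr4* was spread over basophils, lymphocytes and macrophages.

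*Cxcl3* followed *Cxcl2* at a level lower by an order of magnitude. Neutrophils had 9.30 and 8.11, macrophages 7.27 and 3.15 and basophils 3.50 and 3.06, with no other cell type above 0.986. Macrophages and basophils overlapped in their library values, and both lay apart from the cell types below. Over the 22 pairs of cell type and library the log2 levels of *Cxcl3* and *Cxcl2* correlated with a Pearson r of 0.95, a description in which the points of a library share its depth and its free RNA. Macrophages held 55.2% and 50.7% of all *Cxcl3* UMIs and neutrophils 22.6% and 33.4%. The transcript was carried by few macrophages: the 10% of cells with the most UMIs held 79.1% and 87.7% of the macrophage total, against 58.5% and 59.7% in neutrophils. After thinning, a *Cxcl3* UMI was found in 20.02% and 12.6% of macrophages and in 4.49% and 2.84% of T cells.

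The macrophage ratio of *Cxcl3* was -1.20 (-1.25 to -1.16), the lowest of this gene and lower than that of all but 0.383% of the genes measured in macrophages. It was -0.80 with UMIs summed over cells and -0.79 in the macrophages whose highest marker score was that of macrophages, 1560 and 2014 cells with levels of 4.98 and 2.88. In neutrophils the ratio was -0.20 (-0.26 to -0.14). Per *Cxcl2* UMI, macrophages held 0.0902 and 0.0607 *Cxcl3* UMIs and neutrophils 0.0691 and 0.0579, so that *Cxcl3* was the lower relative to *Cxcl2* in Mir34a ΔMye in both cell types. Basophils had a ratio of -0.19 (-0.62 to 0.24).

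*Cxcl1* had another distribution, with most of its UMIs counted in epithelial cells and macrophages. Its level was highest in fibroblasts with 6.38 and 4.58 and in macrophages with 5.70 and 4.57, which did not differ beyond the libraries' values, followed by endothelial cells with 3.45 and 1.96 and epithelial cells with 2.03 and 1.37. The fibroblast value rested on 222 and 469 UMIs, of which 73 and 153 came from 1 cell per library. Erythroid cells overlapped the epithelial values with 2.001 and 1.16, from 45 and 10 UMIs. Epithelial cells, the most numerous cells, held 94415818 of 147109016 UMIs of all genes in Mir34a F/F and 88662011 of 193133086 in Mir34a ΔMye. Of all *Cxcl1* UMIs they held 57.1% and 31.1%, and macrophages 32.8% and 56.3%. These shares include *Cxcl1* UMIs of the kind found in T cells, which had levels of 1.22 and 0.664. T cells, B cells, mast cells and dendritic cells had 0.927 to 1.22 in Mir34a F/F and 0.535 to 0.664 in Mir34a ΔMye. After thinning, a *Cxcl1* UMI was found in 27.7% and 23.2% of macrophages, 15.7% and 11.8% of epithelial cells and 11.5% and 6.13% of T cells, which should lack the gene.

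All 11 ratios of *Cxcl1* were below 0, from -0.88 in T cells to -0.21, and the intervals of basophils and erythroid cells held 0. Ratios below 0 were found for 49.6% (dendritic cells) to 87.7% (epithelial cells) of all genes. In epithelial cells, with 20885 and 10831 UMIs, the ratio was -0.56 (-0.62 to -0.51). It was -0.43 without the cells at or over 25% mitochondrial UMIs, -0.86 with UMIs summed over cells, -0.27 with immunoglobulin, mitochondrial and ribosomal RNA-like genes left out of the totals, and -0.19 after the T cell level of each library was subtracted. In macrophages, with 11995 and 19640 UMIs, the ratio was -0.32 (-0.36 to -0.27), and -0.060 with UMIs summed over cells. The number of *Cxcl2* UMIs per *Cxcl1* UMI separated the cell types more than the libraries, with 95.8 and 159 in neutrophils, 202 and 134 in basophils, 10.9 and 9.76 in macrophages, 2.74 and 3.40 in epithelial cells and 1.49 and 0.514 in fibroblasts. Of these 2 ligands neutrophils and basophils thus held almost only *Cxcl2*, while fibroblasts held more *Cxcl2* in Mir34a F/F and more *Cxcl1* in Mir34a ΔMye.

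Most *Cxcl5* UMIs were counted in epithelial cells. These, the most numerous cells, had a level of 2.41 and 1.77 and held 88.9% and 84.5% of its UMIs. The level was highest in fibroblasts in both libraries, with 4.92 and 2.25. The fibroblast value rested on 300 and 195 UMIs, of which 143 and 29 came from 1 cell per library. Expression was uneven: the 10% of epithelial cells with the most UMIs held 78.4% and 77.9% of the epithelial total, and single cells held up to 502 and 549 UMIs. After thinning, a *Cxcl5* UMI was found in 15.2% and 12.6% of epithelial cells and in 5.93% and 4.01% of T cells. Neutrophils, with 0.944 and 0.604, macrophages, mast cells, T cells and B cells had overlapping values, all below the epithelial ones.

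The epithelial *Cxcl5* ratio was -0.44 (-0.48 to -0.40), from 28363 and 20895 UMIs. Without the cells at or over 25% mitochondrial UMIs it was -0.36. Its size varied with the choice of cells and totals, from -0.71 in cells with at least 500 genes and under 10% mitochondrial UMIs, through -0.16 with totals that leave out immunoglobulin, mitochondrial and ribosomal RNA-like genes, to -0.13 in cells whose highest marker score was epithelial. Leaving out those genes moved the median ratio of all genes by 0.26 in epithelial cells, 0.11 in macrophages and 0.26 in B cells, to 0.03, 0.05 and -0.08. Of the 9 cell types with a *Cxcl5* ratio, 8 were below 0, and endothelial cells had 0.73 (-0.28 to 1.77). The share of all genes below 0 was 49.6% (dendritic cells) to 87.7% (epithelial cells) in these cell types.

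Within the epithelium, *Cxcl5* varied with differentiation and cell cycle markers. Cells with a UMI of *Krt20*, a keratin of differentiated surface colonocytes, had 3.67 and 3.14 against 2.26 and 1.62 in cells without. Cells with a UMI of the stem cell marker *Lgr5* had 1.20 and 0.995 against 2.49 and 1.82, and cells with a UMI of the proliferation marker *Mki67* had 1.19 and 1.20 against 2.52 and 1.82. Cells with a UMI of *Muc2*, the goblet cell mucin, had 1.76 and 1.40 against 2.50 and 1.84. The order of each pair was the same in both libraries. These cells were picked after thinning to 1000 UMIs, at which 11.6% and 10.3% of epithelial cells held a *Krt20* UMI against 3.50% and 2.38% of T cells, while the shares for *Muc2* (10.7% and 14.4%) and *Mki67* (7.12% and 6.06%) were close to those in T cells (9.29% and 8.89%, and 4.73% and 4.16%).

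The genes with which the ligands coincided in epithelial cells were compared between cells with and without a UMI of the ligand in thinned data. Genes are counted here and below by the sign of the difference in both libraries, and then by counting intervals that did not hold 0 in either. The shares of all genes given beside them are by sign in each library alone, which is not a like measure. No share of all genes was computed by interval. Of 10 inducers and mRNA regulators of these chemokines (the cytokines *Il1a*, *Il1b*, *Il17a* and *Tnf*, NF-κB regulators and RNA-binding proteins that shorten the life of their transcripts), 10 had a positive difference in cells with a *Cxcl1* UMI, 9 of them by interval, with median log2 differences of 0.51 and 0.54. *Tnf* differed by 0.70 and 0.65, *Nfkbia*, the NF-κB inhibitor and target, by 0.65 and 0.63, *Cxcl2* by 0.98 and 0.71 and *Cxcl5* by 0.54 and 0.41. Of all genes, 51.7% were higher in these cells in Mir34a F/F and 64.8% in Mir34a ΔMye. Differences were also positive for 12 of 14 genes of the activation list, 6 by interval, for 7 of 9 neutrophil attractant receptors, 0 by interval, and for 7 of 14 neutrophil maturation genes, 1 by interval, and the part of leukocyte RNA was not tested. The activation list shares *Il1a*, *Tnf* and *Tnfaip3* with the inducers, so these 2 lists are not separate here or below. Cells with a *Cxcl5* UMI had positive differences in 8 of the 10 inducers, 7 by interval, with medians of 0.18 and 0.25, against 40.5% and 48.9% of all genes. In these cells the atypical receptor *Ackr3*, which removes CXCL12, was lower by -0.72 and -1.32, *Cxcl3* was higher by 1.45 and 0.58 and *Ltf*, encoding lactoferrin, by 3.14 and 2.46. Of the neutrophil maturation genes 4 of 14 had positive differences, 4 by interval, and 3 negative, 1 by interval, with medians of 0.19 and 0.016, and of the 9 attractant receptors 0 had positive and 2 negative differences, 0 by interval. The neutrophil markers *Ly6g* and *S100a8* were among those higher, by 0.81 and 0.63 and by 0.25 and 0.47, and the part of neutrophil RNA in these differences was not tested. *Ppbp*, the CXCR2 ligand known from platelets, had 0.764 against 0.0369 in Mir34a F/F and 0.1802 against 0.0328 in Mir34a ΔMye.

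*Cxcl12* was stromal. Fibroblasts had 2.85 and 2.21, from 62 and 176 UMIs, and endothelial cells 1.39 and 1.41, from 74 and 115 UMIs, and both lay apart from each other and from all other cell types. Mast cells, with 0.0301 and 0.0503, were the highest of the rest. Of Mir34a F/F neutrophils 0 of 1053 cells held a UMI, which allows a share of cells with a UMI, not of cells expressing the gene, of up to 0.285%, and of Mir34a ΔMye neutrophils 3 of 1077 did. T cells held 1 and 7 UMIs, against 1410 and 1363 of *Cxcl1*. The fibroblast ratio was -0.37 (-0.88 to 0.17) and turned to 0.36 with UMIs summed over cells and to 0.14 after thinning. The endothelial ratio was 0.030 (-0.51 to 0.59), and -0.052 in cells of matching marker score. A difference in *Cxcl12* between the libraries was not detectable at this number of stromal cells.

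*Cxcr2* was a neutrophil transcript. Neutrophils had 1.76 and 2.58 UMIs per 10000, from 928 and 2463 UMIs in 1053 and 1077 cells, and held 79.4% and 87.6% of all *Cxcr2* UMIs. The share of neutrophils with at least 1 UMI was 46.8% in Mir34a F/F, where their median depth was 4107 UMIs, and 65.6% in Mir34a ΔMye, where it was 7330, against 0.972% and 1.28% of T cells. After thinning to 1000 UMIs the shares were 15.9% (95% exact binomial interval 13.7% to 18.3%) and 20.5% (18.2% to 23.1%), whose intervals overlapped slightly, and 0.266% and 0.151% in T cells. Basophils followed with 0.690 and 0.590, from 13 and 30 UMIs, and no other cell type exceeded 0.0407. Macrophages had 0.0218 and 0.0355, from 39 and 113 UMIs, a ratio of 0.71 (-0.050 to 1.496).

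The neutrophil ratio of *Cxcr2* was 0.55 (0.43 to 0.68), above that of 93.6% of the genes measured in neutrophils, whose median was -0.15. Across the alternatives it stayed between 0.44 and 0.63. In the same neutrophils the ratios of the ligands *Cxcl2* and *Cxcl3* were 0.032 and -0.20. *Cxcl1* and *Cxcl5* in neutrophils had ratios of -0.54 and -0.64, at levels of 1.42 and 0.975, and 0.944 and 0.604, close to those of cell types that do not make them.

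**Figure D2:**
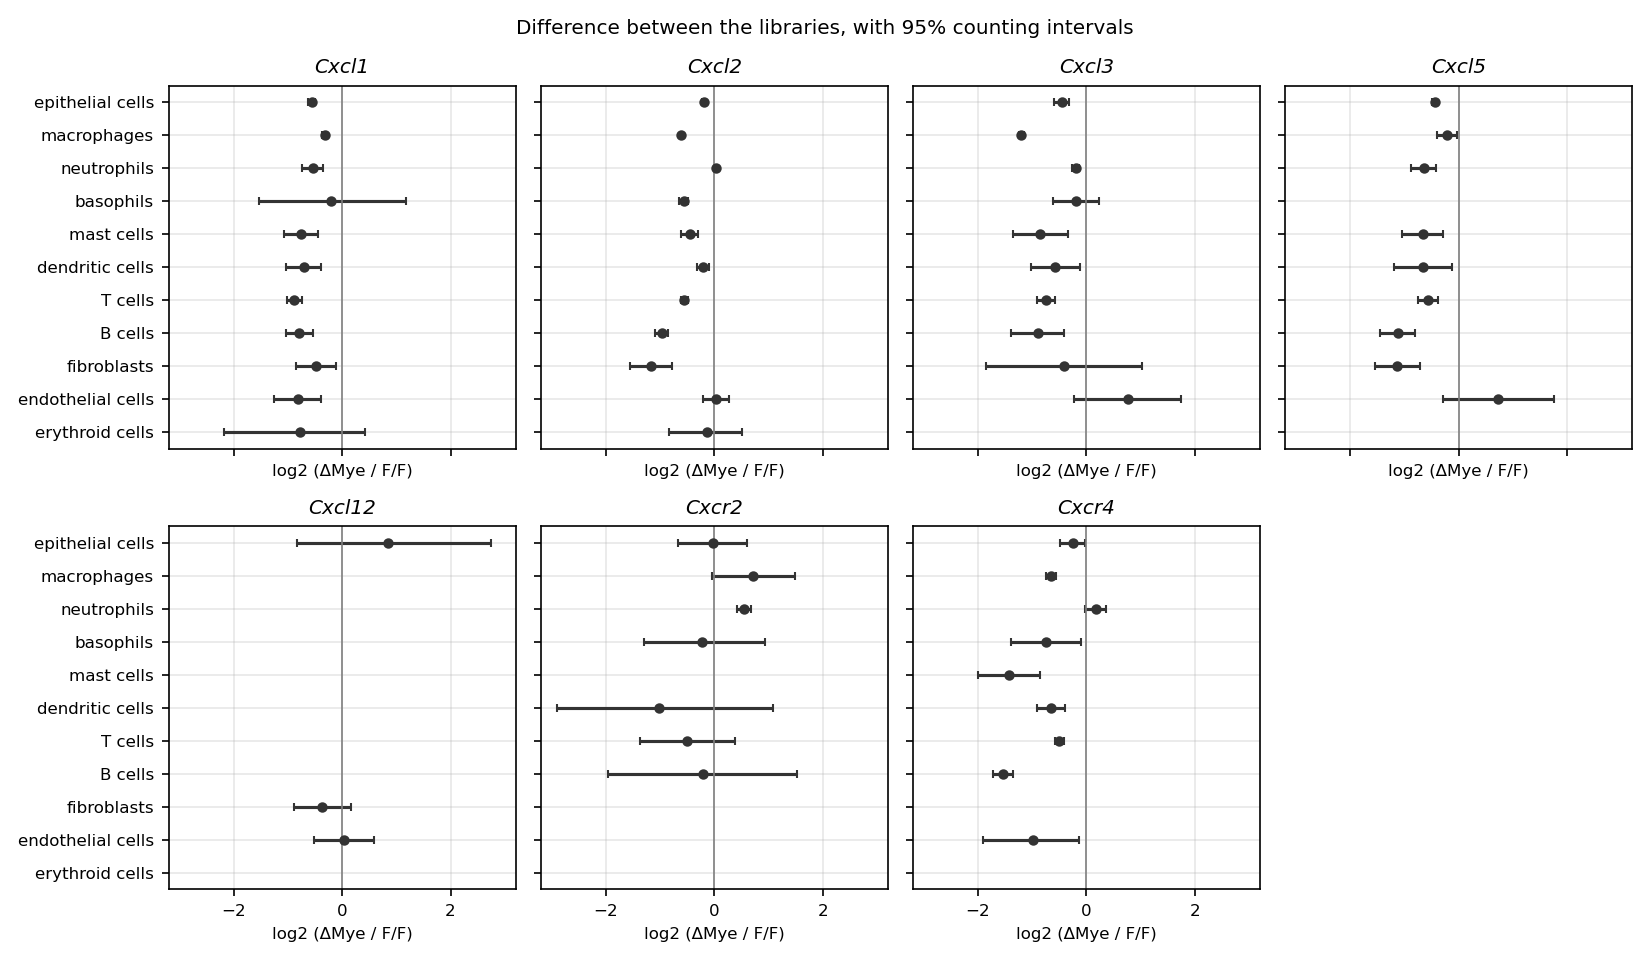
Ratio of Mir34a ΔMye to Mir34a F/F (log2) for each gene and cell type, with 95% counting intervals and no point where a library held under 10 UMIs. The points of *Cxcl1* all lie below 0, *Cxcl3* in macrophages lies at -1.20, and *Cxcr2* in neutrophils lies at 0.55.

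*Cxcr4* was spread over several leukocyte types. Basophils had 2.75 and 1.64, T cells 2.04 and 1.44, B cells 1.96 and 0.673, macrophages 1.53 and 0.980, dendritic cells 1.14 and 0.724 and neutrophils 0.961 and 1.09, and each of these overlapped with the next in this order. Epithelial cells had 0.165 and 0.138. Macrophages held 35.8% and 37.2% and T cells 32.8% and 33.8% of all *Cxcr4* UMIs. After thinning, 17.0% and 12.4% of T cells and 16.9% and 5.86% of B cells held a *Cxcr4* UMI, against 1.17% and 1.15% of epithelial cells. *Cxcr4* was lower in Mir34a ΔMye in 8 of 9 cell types, in which 49.6% (dendritic cells) to 87.7% (epithelial cells) of all genes were lower. The *Cxcr4* ratio was -1.54 (-1.73 to -1.36) in B cells, -0.65 (-0.74 to -0.56) in macrophages and -0.50 (-0.59 to -0.42) in T cells, and 0.17 (-0.02 to 0.37) in neutrophils. Median depth in B cells was 3664 and 20852 UMIs, the widest gap of the data, and its part in the B cell ratio was not tested beyond thinning, which gave shares in the same order.

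The members' ratios were set beside those of all genes of the cell type. In macrophages, 3 of the 5 members measured were lower by a log2 ratio of at least 0.58 in size (*Cxcl2*, *Cxcl3* and *Cxcr4*), against 3.91% of 8875 genes, and the median was -0.61 for the members and -0.06 for all genes. In epithelial cells 0 of 5 passed this fold, against 4.64% of genes, with medians of -0.44 and -0.22. *Cxcl1* passed it with UMIs summed over cells (-0.86) and *Cxcl5* in cells with at least 500 genes and under 10% mitochondrial UMIs (-0.71). With immunoglobulin, mitochondrial and ribosomal RNA-like genes left out of the totals, these 2 had -0.27 and -0.16. The shares of all genes past the fold were computed with the reported levels only, not for such alternatives. In neutrophils 1 of 6 was lower past the fold (*Cxcl5*), against 13.8% of genes, and 0 of 6 were higher past it, against 5.66%. *Cxcr2* passed it with UMIs summed over cells (0.62), after thinning (0.60) and with the reduced totals (0.63). It fell short under the other alternatives, among them cells of matching marker score (0.53) and totals without *S100a8* and *S100a9* (0.44). In T cells 2 of 5 (*Cxcl1* and *Cxcl3*) were lower, against 9.14% of genes, and *Cxcr4* passed the fold after thinning (-0.60). In mast cells 4 of 5 were lower, against 16.9% of genes, with medians of -0.76 for the members and -0.13 for all genes, and in dendritic cells 3 of 5, against 8.21%, with medians of -0.65 and 0.0044. In B cells 5 of 5 were lower, against 27.5% of genes, and the medians were -0.97 and -0.34. In mast cells, dendritic cells, T cells and B cells the levels of *Cxcl1*, *Cxcl2* and *Cxcl3* were all below those of macrophages. The neutrophil maturation genes, which these cells do not make, were lower there as well, with a median of -0.85 in mast cells (6 of 9 past the fold), -0.79 in T cells (6 of 9), -0.60 in dendritic cells (5 of 9) and -0.81 in B cells (7 of 8), and the part of neutrophil RNA in the members' ratios was not tested. In endothelial cells 2 of 6 members were higher past the fold, *Cxcl3* with 0.76 (-0.23 to 1.75) and *Cxcl5*, both with intervals that held 0, and 2 were lower, *Cxcl1* and *Cxcr4*, against 12.4% and 24.0% of genes. A single endothelial cell of each library held 25 of 34 and 42 of 54 *Cxcl3* UMIs. Endothelial *S100a8* was 3.199 and 12.97, while 3 of 7 maturation genes were higher and 2 lower past the fold there, with a median of -0.45. The part of neutrophil RNA in these endothelial values was not tested. *Cxcl2* in macrophages fell short of the fold with UMIs summed over cells (-0.22), with the reduced totals (-0.54) and in the cells of matching marker score (-0.45).

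Macrophages were divided by markers of their states to see where the ligands lay. *Cxcl2* and *Cxcl3* were higher in macrophages with a UMI of *Arg1*, the arginase of wound-associated macrophages, or of *Ly6c2*, a marker of monocytes recently arrived from blood, than in those without. They were lower in those with a UMI of the mannose receptor *Mrc1* or the complement gene *C1qa*. *C1qa* was chosen as a divider after its values were seen. *Cxcl3* was 16.3 and 12.3 in cells with *Arg1* against 4.96 and 2.17 without, and 2.81 and 1.29 in cells with *C1qa* against 11.4 and 5.602 without. *Cxcl2* was 105.5 and 107 with *Arg1* against 63.0 and 40.2 without, and 43.9 and 35.0 with *Mrc1* against 75.8 and 49.3 without. *Cxcl1* was 8.53 and 8.13 with *Arg1* against 4.99 and 4.17 without. In the 81 and 61 macrophages with a UMI of *Nos2*, the inducible nitric oxide synthase, *Cxcl3* was 22.3 and 11.8 and *Cxcl2* 111 and 62.5, but these were 3.69% and 2.35% of macrophages, close to the 2.80% and 2.12% of T cells with a *Nos2* UMI.

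The states also differed in number and in ratio. After thinning, *Arg1* was found in 20.5% (18.8% to 22.3%) of Mir34a F/F and 9.83% (8.71% to 11.04%) of Mir34a ΔMye macrophages, against 2.90% and 1.36% of T cells. *Spp1*, encoding osteopontin, was found in 23.6% and 12.1% against 10.1% and 4.31% of T cells, and *Mrc1* in 12.9% and 17.6% against 1.498% and 1.21%. In macrophages with *Arg1* the *Cxcl2* ratio was 0.02 (-0.00 to 0.04) and in those without -0.65 (-0.66 to -0.63). The *Cxcl3* ratio was -0.41 (-0.48 to -0.34) with *Arg1* and -1.19 (-1.25 to -1.13) without, and stood at -1.13 with and -1.02 without *C1qa*. *Cxcl3* was therefore lower in Mir34a ΔMye within each of these subsets, while *Cxcl2* was not lower among the cells with *Arg1*. In macrophages with *Ly6c2*, *Cxcl1* was 3.75 and 5.08, a ratio of 0.44 (0.27 to 0.61), opposite to that of the cells without, -0.39. A cell without a UMI of a marker at this depth may still express it.

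**Figure D3:**
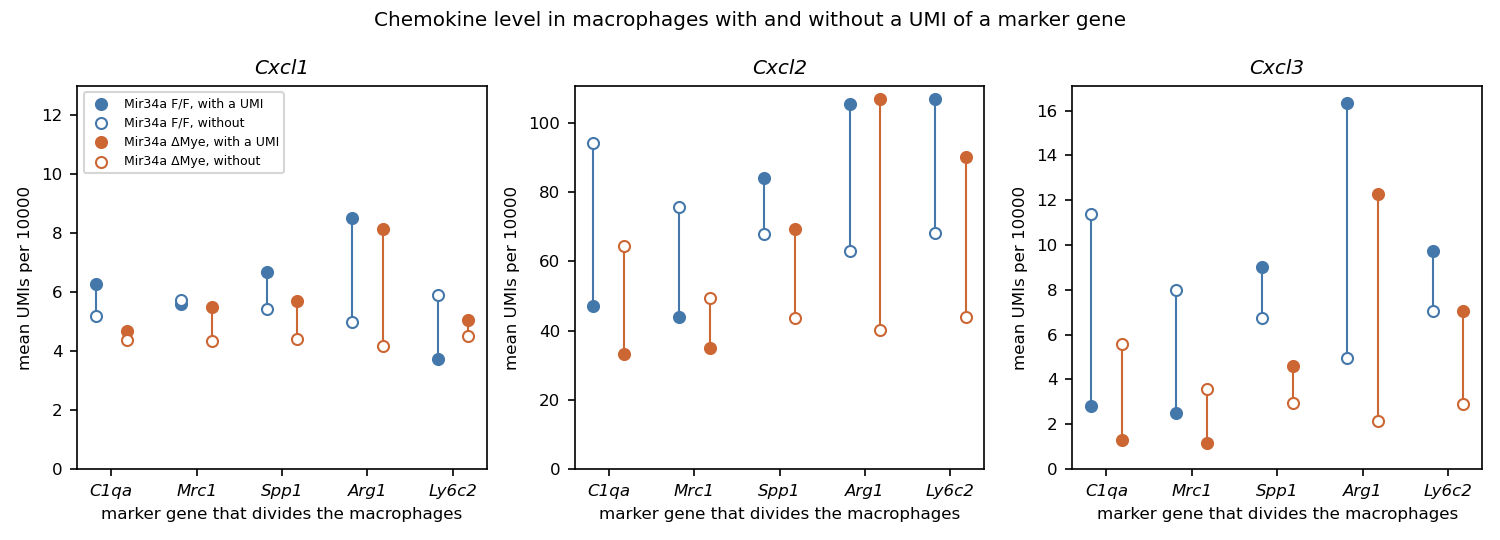
Level of *Cxcl1*, *Cxcl2* and *Cxcl3* (mean UMIs per 10000, axis from 0) in macrophages with (filled) and without (open) a UMI of *C1qa*, *Mrc1*, *Spp1*, *Arg1* or *Ly6c2* in thinned data, per library. *Cxcl3* lay at 16.3 and 12.3 in cells with *Arg1* and at 2.81 and 1.29 in cells with *C1qa*.

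Macrophages with a *Cxcl2* UMI after thinning (1721 of 2193 in Mir34a F/F) were higher in 14 of 14 genes of the activation list in both libraries, 14 by interval, with median log2 differences of 0.99 and 0.98, and in 9 of 10 inducers, 9 by interval, with medians of 0.92 and 0.82, against 33.9% and 38.9% of all genes. *Cxcl3* differed by 3.41 and 2.97, *Cxcl1* by 2.31 and 2.42, the prostaglandin synthase *Ptgs2* by 2.31 and 2.05, *Il1a* by 1.84 and 1.79 and *Il1b* by 1.39 and 1.51. Differences were also positive for 11 of 14 neutrophil maturation genes, 6 by interval, with medians of 0.58 and 0.29, and for 7 of 9 attractant receptors, 6 by interval, with none negative in both libraries, and the part of neutrophil RNA in these differences was not tested. These cells were picked in a random draw separate from that of the shares above, so their number differs slightly. Median depth before thinning was 7434 UMIs with and 6738 without in Mir34a F/F. Between the libraries, the inducers had a median ratio of 0.04 in macrophages and 0 of 10 passed the fold in either direction, while the activation list had -0.22 with 1 of 14 lower past it, against 3.91% of genes lower and 1.87% higher. The neutrophil maturation genes had a median of -0.28 in macrophages, with 4 of 13 lower past the fold, and the part of neutrophil RNA in the macrophage ratios was not tested beyond the cells of matching marker score.

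In neutrophils, the other receptors for attractants and adhesion were read beside *Cxcr2*. All 9 of the list had a ratio above 0, while 62.6% of all genes had one below 0. Their median was 0.31 against -0.15 for all genes, and 2 were higher past the fold, against 5.66% of genes: *Csf3r*, the receptor of the growth factor G-CSF, with 3.72 and 6.13 and a ratio of 0.72 (0.63 to 0.81), and the chemokine receptor *Ccr1* with 3.38 and 5.18 and 0.62 (0.52 to 0.71). The receptor of leukotriene B4, *Ltb4r1*, had 0.41, the formyl peptide receptors *Fpr1* and *Fpr2* 0.30 and 0.25, the C5a receptor *C5ar1* 0.27, and the integrin chains *Itgam* and *Itgb2* 0.31 and 0.21. The closest paralog, *Cxcr1*, had 0.199 and 0.147, a ratio of -0.44 (-0.92 to 0.05). Of the other CXC ligands and receptors, 5 had a ratio and 1 passed the fold, *Cxcl10*, a ligand of CXCR3, with 0.245 and 0.465 and a ratio of 0.92. The list of signalling genes downstream of CXCR2 had a median of 0.09 with 0 of 15 past the fold.

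Of 15 maturation genes 5 were lower past the fold (13.8% of all genes) and 1 higher (5.66%), with a median of -0.50, and that gene, *Csf3r*, stands in the receptor list too. *Ltf* had 2.78 and 1.15, a ratio of -1.28, and *Camp*, encoding the cathelicidin of secondary granules, 3.74 and 1.60, a ratio of -1.23. *S100a9*, which forms calprotectin with *S100a8*, had 866 and 529, a ratio of -0.71, and *Lcn2* had -0.60. *Mmp9*, the gelatinase of neutrophil granules, had 3.74 and 5.41, a ratio of 0.53 in the other direction. Of 14 activation genes 7 were higher past the fold and 1 lower, against 5.66% and 13.8% of all genes, with a median of 0.47 (the list shares *Il1a*, *Tnf* and *Tnfaip3* with the inducers), among them *Ptgs2* at 0.82, *Cd274*, encoding PD-L1, at 0.82, *Hcar2* at 0.86 and *Icam1* at 0.59, while *Cstb* had 8.15 and 4.37, a ratio of -0.90. Of 10 inducers 4 were higher past the fold, against 5.66% of all genes, with a median of 0.44: *Il1b* had 24.8 and 44.5, a ratio of 0.84 (0.81 to 0.88), the NF-κB feedback inhibitor *Tnfaip3* 0.88, the NF-κB cofactor *Nfkbiz* 0.85 and *Il1a* 0.63. *Il17a* had -0.31. *S100a8* and *S100a9* take a large part of the UMIs of neutrophils. With both left out of the totals, the median over all genes moved by -0.073, the *Cxcl2* ratio to -0.086 and the *Cxcr2* ratio to 0.44.

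Within each library, neutrophils with a *Cxcr2* UMI after thinning (159 of 1026 in Mir34a F/F, at median depths of 4142 UMIs with and 4178 without) had positive differences in 9 of the 9 receptors in both libraries, 6 by interval (not *Ltb4r1*, *Ccr1* and *Itgb2*), with medians of 0.45 and 0.43, against 38.7% and 35.2% of all genes. Of the 15 maturation genes 13 had positive differences, 11 by interval, among them *Mmp8* (0.43 and 0.66) and *Mmp9* (0.55 and 0.64), while *Ltf* (-0.87 and -1.30) and *Camp* (-0.40 and -1.32) were lower. *Cxcr1* differed by 1.08 and 1.57, *Cxcl3* by 0.65 and 0.55, *Il1b* by 0.55 and 0.52 and *Cxcl2* by 0.26 and 0.10. Of the 14 activation genes 3 had positive differences, 1 by interval, and 5 negative, 3 by interval, with medians of -0.030 and -0.26, and *Cstb* (-0.88 and -1.12) and *Ccl3* (-0.31 and -0.69) were among the lower ones.

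**Figure D4:**
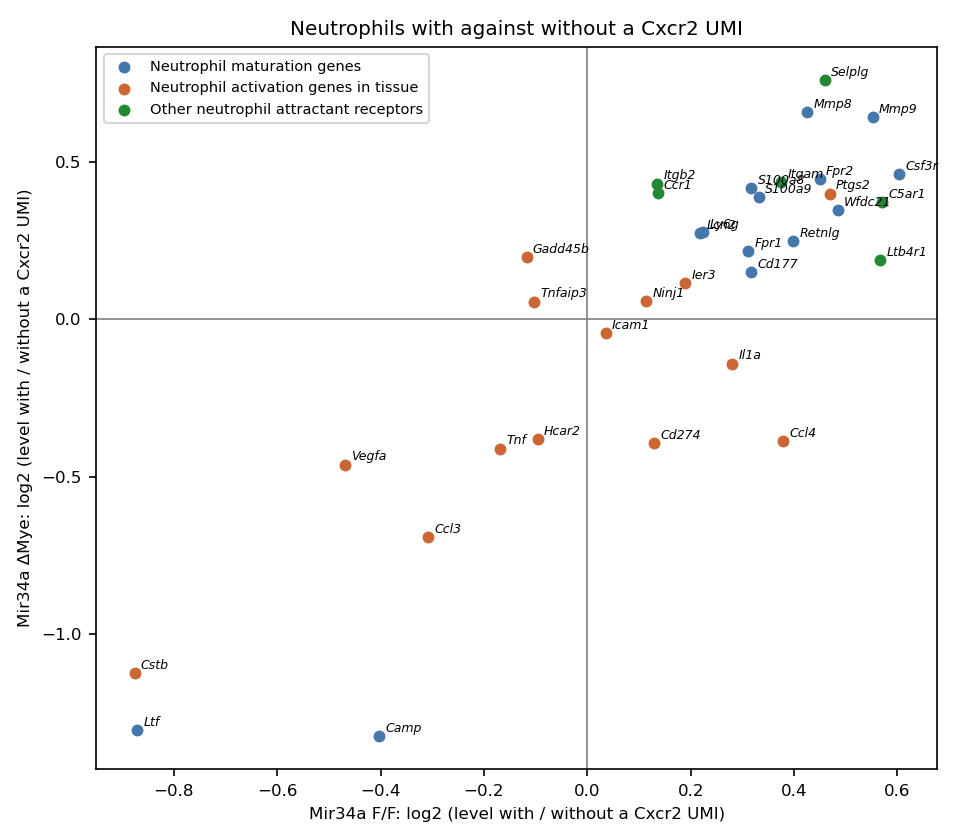
Log2 difference in level between neutrophils with and without a *Cxcr2* UMI for genes of the maturation (blue), activation (orange) and attractant receptor (green) lists, with Mir34a F/F on the x axis and Mir34a ΔMye on the y axis. The 9 attractant receptors, 3 of them drawn in blue because they are on the maturation list too, lie above 0 on both axes, and *Ltf* and *Camp* lie below 0 on both.

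The basophil values need the makeup of that cluster beside them. Its 48 and 40 cells held the 6 neutrophil markers at 466 and 406 UMIs per 10000, which is 29.0% and 38.0% of the level in neutrophils, against 0.469% and 0.683% for basophil markers in neutrophils. The cells fell apart: 34 of 48 and 22 of 40 had under 10% of the neutrophil marker mean. In these, *Cxcl2* was still 126 and 62.7 and *Cxcr4* 3.49 and 2.48, whereas *Cxcl3* was 0.947 and 1.0003 and *Cxcr2* 0.488 and 0.241 from 5 and 5 UMIs. In the other 14 and 18 cells *Cxcl2* was 140.2 and 119, *Cxcl3* 9.70 and 5.57, *Cxcr2* 1.18 and 1.02 and *Cxcr4* 0.943 and 0.601, beside 9.30 and 8.11 for *Cxcl3* and 0.961 and 1.09 for *Cxcr4* in neutrophils. The high *Cxcl2* and *Cxcr4* of the cluster were thus present without neutrophil markers, and most of its *Cxcl3* and *Cxcr2* was not.

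Genes whose pattern over the 22 pairs of cell type and library was most like that of each member, among 7050 genes, were named by Pearson r of log2 levels with 0.1 added. *Cxcl2* was closest to *Clec4e* (0.99), *C5ar1* (0.98) and *Cebpb* (0.97), and *Cxcl3* to *Msrb1* (0.96), *Clec4e* (0.95) and *Cxcl2* (0.95). *Cxcl1* was closest to *Fn1* (0.95), *Mmp14* (0.94) and *Ctsl* (0.89), and *Cxcl5* to *Egfr* (0.94), *Epb41l5* (0.90) and *Naaladl2* (0.90). *Cxcl12* went with *Sulf1* (0.996), *Dlc1* (0.99) and *Sparc* (0.99), *Cxcr2* with *Mirt2* (0.99), *Mrgpra2b* (0.98) and *Cstdc4* (0.98), and *Cxcr4* with *Tpst2* (0.86), *Limd2* (0.84) and *Itgal* (0.84). Among the members, *Cxcl2* and *Cxcr2* had 0.82, *Cxcl1* and *Cxcl5* 0.60, *Cxcl1* and *Cxcl12* 0.60 and *Cxcl1* and *Cxcl2* only 0.16. The 2 libraries of a cell type are not independent points, and no test was made on these values.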

How the data were processed

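Single cells of tumors were captured with the 10x Genomics 3′ v3.1 chemistry and, per the labels, aligned to mm10 and counted with Cell Ranger 7.2.0. The deposited values are on a natural log scale, taken by the authors in Seurat of 1 plus the UMIs of a gene per 10000 UMIs, after removing doublets with Scrublet, and a deposited annotation gives 1 of 11 cell types per cell. Whole UMI counts were recovered from the 96847573 values above 0, with a largest deviation from a whole number of 1.5e-10. The methods state a limit of 25% mitochondrial UMIs, which 6600 of the 38883 deposited cells meet or exceed. These cells were kept, and left out in an alternative.

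Levels were averaged over the cells of a type and library. Shares of cells were compared after each cell was drawn down to 1000 UMIs (binomial intervals exact, Clopper-Pearson). Cells with and without a UMI of a member were picked in a separate random draw to 1000 UMIs. Their numbers therefore differ slightly from the shares, for *Cxcl2* in macrophages and *Cxcr2* in neutrophils among others. In a mean over cells of unlike depth, UMIs carry unequal weights. The 95% intervals of ratios were therefore computed from the effective number of UMIs in place of the planned plain sum. That sum gave intervals that were too narrow on simulated data, in which UMIs were drawn independently. UMIs of 1 cell are not independent, and the intervals do not allow for this. Intervals and the 3 counts that a count of 0 allows cover counting error only. Lists were described by the number of genes past a log2 ratio of 0.58 in size, beside all genes with at least 20 UMIs in both libraries together and a level of 0.1 in one. No p-value was computed.

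The members and gene lists were chosen with earlier results of these data known. Named are the members, genes of the fixed lists, and the 3 genes most like each member in pattern among genes with a level of 0.5 in one pair of cell type and library. *C1qa* was added as a divider of macrophages after values were seen. Promoters (6 of 7 members), the miRNA and gene positions came from RefSeq GRCm38.p6. Python 3.11.15, numpy 2.4.6, scipy 1.17.1 and matplotlib 3.10.9 were used. One gene of the maturation list enters its counts and is not reported here.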

Additional observations from a re-analysis of the deposited data

Results flagged for a closer look

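*Cxcl2* had ratios of opposite direction in 2 cell types, with counting intervals that did not hold 0. In neutrophils the log2 ratio of Mir34a ΔMye to Mir34a F/F was 0.032, and in fibroblasts it was -1.16. The difference between these ratios was not tested, since each rests on 1 library per genotype. The neutrophil value fell below 0 after thinning each cell to 1000 UMIs (-0.022) and when *S100a8* and *S100a9* were left out of the totals (-0.086), and the fibroblast value rests on 57 and 60 cells, a single one of which held 109 of 331 UMIs in Mir34a F/F and 75 of 241 in Mir34a ΔMye. In fibroblasts the neutrophil maturation genes had a median ratio of -2.74, with 4 of 4 lower past the fold. The part of neutrophil RNA in the fibroblast value was not tested.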

How the results depend on the processing

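Over 12 ratios, 99 alternative values were computed, and 94 had the direction of the reported value. A pseudocount of 0.1 left all 12 within their intervals, and *Cxcr2* in neutrophils stayed within its interval under every alternative. With UMIs summed over cells the log2 ratios of *Cxcl1*, *Cxcl2* and *Cxcl3* in macrophages were -0.060, -0.22 and -0.80, those of *Cxcl1* and *Cxcl5* in epithelial cells -0.86 and -0.35, that of *Cxcl2* in neutrophils 0.13 and that of *Cxcl12* in fibroblasts 0.36. With cells thinned to 1000 UMIs, *Cxcl2* in neutrophils turned to -0.022 and *Cxcl12* in fibroblasts to 0.14, and *Cxcl3* in macrophages, *Cxcl5* in epithelial cells and *Cxcr4* in T cells had -1.27, -0.54 and -0.60. With at least 500 genes and under 10% mitochondrial UMIs, *Cxcl1* and *Cxcl5* in epithelial cells had -0.39 and -0.71 and *Cxcl2* in macrophages and neutrophils -0.59 and 0.055. Under 25% mitochondrial UMIs, the first 2 had -0.43 and -0.36 and *Cxcl2* in macrophages -0.59. In cells whose highest marker score was that of their type, *Cxcl1*, *Cxcl2* and *Cxcl3* in macrophages had -0.26, -0.45 and -0.79 and *Cxcl5* in epithelial cells -0.13, and *Cxcl12* in endothelial cells turned to -0.052. After subtracting the level in a cell type that should lack the gene, *Cxcl1* had -0.20 in macrophages and -0.19 in epithelial cells, *Cxcl3* in macrophages -1.26, *Cxcl2* in neutrophils 0.051 and *Cxcr4* in B cells -1.75. With totals that leave out 393 immunoglobulin, 13 mitochondrial and 3 ribosomal RNA-like genes, *Cxcl1*, *Cxcl2* and *Cxcl3* in macrophages had -0.24, -0.54 and -1.12, *Cxcl1* and *Cxcl5* in epithelial cells -0.27 and -0.16 and *Cxcl2* in neutrophils 0.12. A further 2 alternatives were chosen after seeing the data: totals without *S100a8* and *S100a9*, with which *Cxcl2* in neutrophils turned to -0.086, and basophils with few neutrophil marker UMIs, in which the *Cxcl2* ratio was -1.001. The share of neutrophils with a *Cxcr2* UMI was 15.9% and 20.5% after thinning and 51.5% and 71.2% in cells of matching marker score. Thinning and reduced totals differ from the reported values by construction, and otherwise the cause was not tested. No paired analysis was possible because each genotype had 1 library. Values in basophils, fibroblasts, endothelial cells and erythroid cells rest on 30 to 116 cells per library.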
